A study of Mus musculus with 8 samples.

Results

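Acetylation of histone H3 at lysine 56 (H3K56ac) in muscle stem cells (MuSCs) left long stretches of the mouse autosomes without any called peak, and these stretches are described here as peak-free blocks. The blocks were chosen by the peak positions themselves: every interval of at least 400 kb between the end of a peak and the start of the next on the same autosome, with no assembly gap over 50 kb inside. 768 of 103473 autosomal intervals (0.742%) met the rule, out of 782 before the 14 intervals with a large gap were left out. Since the rule used the peaks, the absence of peaks and the length of the blocks are a description and carry no test, and 0 peaks overlapped a block.

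The study compared freshly isolated MuSCs of C57BL/6 background from Control mice, labelled wild type, and from Sirt6mKO mice. In the latter the deacetylase gene Sirt6 was deleted by a Cre recombinase driven from the Pax7 locus. The paper used it to delete the gene in the muscle lineage, which includes the MuSCs. Each genotype gave 2 H3K56ac libraries and 2 input libraries, 8 in all. The deposited list is a merged MuSC peak list without a value per library, and which libraries entered it is not given in the sources used here, so no block can be compared between Sirt6mKO and Control, and a block is free of peaks in the merged list as a whole. The score column was 0 for every peak and the list carries no read counts, so no depth stands behind a single position in it. None of the 20 MuSC marker genes checked, among them Pax7, Myf5, Myod1 and Itga7, had its start in a block, a count whose Wilson 95% interval reaches up to 16.1% and so includes the 13.8% of all autosomal coding genes that started in blocks.

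H3K56ac lies in the globular part of the histone, near where DNA enters and leaves the nucleosome, and is found at active promoters and enhancers. MuSCs, the satellite cells of skeletal muscle, express a myogenic programme, whereas receptors of the nose, antigen receptor segments and many adhesion molecules of neurons are used in other cell types. CpG dinucleotides are depleted across mammalian genomes except at CpG islands, which mark the promoters of most broadly used genes. Gene starts below are the outermost 5′ ends of GENCODE M21 genes on mm10.

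The sequences below show the kinds of promoter found in blocks. Each is the 250 bases before the RefSeq start (GRCm38.p6, the build of mm10), read 5′ to 3′ on the gene's strand, with every CG dinucleotide in capitals. Olfr1034, an odorant receptor gene, is the first by position in the block with the most coding starts (chr2:86046194-86046443, plus strand). Vmn1r91 is the first vomeronasal type 1 receptor of the block with the most such receptors (chr7:20100908-20101157, plus strand). Ins1 encodes an insulin and lies in the sixth longest block (chr19:52264047-52264296, plus strand). Cdh8, a cadherin of neurons, lies in the second longest block (chr8:99416472-99416721, minus strand).
Olfr1034: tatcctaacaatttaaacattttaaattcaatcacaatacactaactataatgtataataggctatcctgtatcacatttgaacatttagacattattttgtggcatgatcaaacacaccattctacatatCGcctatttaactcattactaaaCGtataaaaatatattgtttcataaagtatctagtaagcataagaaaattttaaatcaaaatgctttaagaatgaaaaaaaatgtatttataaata
Vmn1r91: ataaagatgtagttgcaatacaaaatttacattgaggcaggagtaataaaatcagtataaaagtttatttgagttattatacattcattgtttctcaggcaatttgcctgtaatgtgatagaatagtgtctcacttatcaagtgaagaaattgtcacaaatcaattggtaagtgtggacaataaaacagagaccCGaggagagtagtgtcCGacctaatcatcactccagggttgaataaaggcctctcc
Ins1: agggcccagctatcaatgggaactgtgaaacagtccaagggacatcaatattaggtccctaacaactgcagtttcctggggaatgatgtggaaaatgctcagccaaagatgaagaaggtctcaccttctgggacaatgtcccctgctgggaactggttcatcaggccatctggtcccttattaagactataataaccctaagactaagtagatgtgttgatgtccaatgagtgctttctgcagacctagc
Cdh8: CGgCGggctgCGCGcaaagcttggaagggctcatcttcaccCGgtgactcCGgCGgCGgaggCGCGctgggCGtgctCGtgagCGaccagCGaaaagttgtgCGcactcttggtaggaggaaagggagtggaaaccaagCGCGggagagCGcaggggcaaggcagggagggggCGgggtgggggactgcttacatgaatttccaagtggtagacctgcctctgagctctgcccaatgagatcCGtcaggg
The Cdh8 stretch held 20 CG, those of Olfr1034 and Vmn1r91 held 2 each and that of Ins1 held 0. The GENCODE start of Olfr1034 was 583 bp and that of Vmn1r91 was 1478 bp from the RefSeq start, while both annotations gave the same start for Ins1 and Cdh8. On the 250 bases before the GENCODE start, which is used everywhere else here, Olfr1034 had 0 CG and Vmn1r91 had 3. At least 1 CG was found before 92.6% of the starts of all 20807 autosomal coding genes on the same window.

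The blocks covered 845.1 Mb, or 35.2% of the 2396 Mb of autosomal sequence outside gaps. Their median length was 757 kb, with quartiles of 533 and 1266 kb and a longest block of 6561 kb. 260 blocks reached 1 Mb and held 62.5% of the block length, 95 reached 2 Mb with 35.3%, and 5 reached 5 Mb with 3.47%. The share of a chromosome in blocks ran from 25.0% on chromosome 11 and 26.0% on chromosome 19 to 41.2% on chromosome 12. Just inside the threshold lay blocks of 400317, 400469 and 400567 bp, of which the second overlapped Abca12, a lipid transporter of skin, and the third Nptx2, a neuronal pentraxin. Just outside lay intervals of 399321, 398549 and 398380 bp. The first held 10 coding starts, the second held Ednra, the endothelin A receptor, and the third held 0 coding starts.

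Coding genes were sparse in blocks and unevenly spread. Of 20807 autosomal protein-coding genes, 2870 started in a block, which is 13.8%, on 35.2% of the sequence. That is 3.40 coding starts per Mb of block against 11.6 per Mb elsewhere. 327 blocks (42.6%) held no coding start and 167 (21.7%) touched no coding gene at all, 189 held 1 start and 134 held 2 to 4. At the other end 68 blocks held 10 or more starts and together 2001 of the 2870 (69.7%). Deserts, blocks around a single gene and dense clusters thus stood side by side: the longest block held 2 coding starts and a block of 1.53 Mb held 95.

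**Figure D1:**
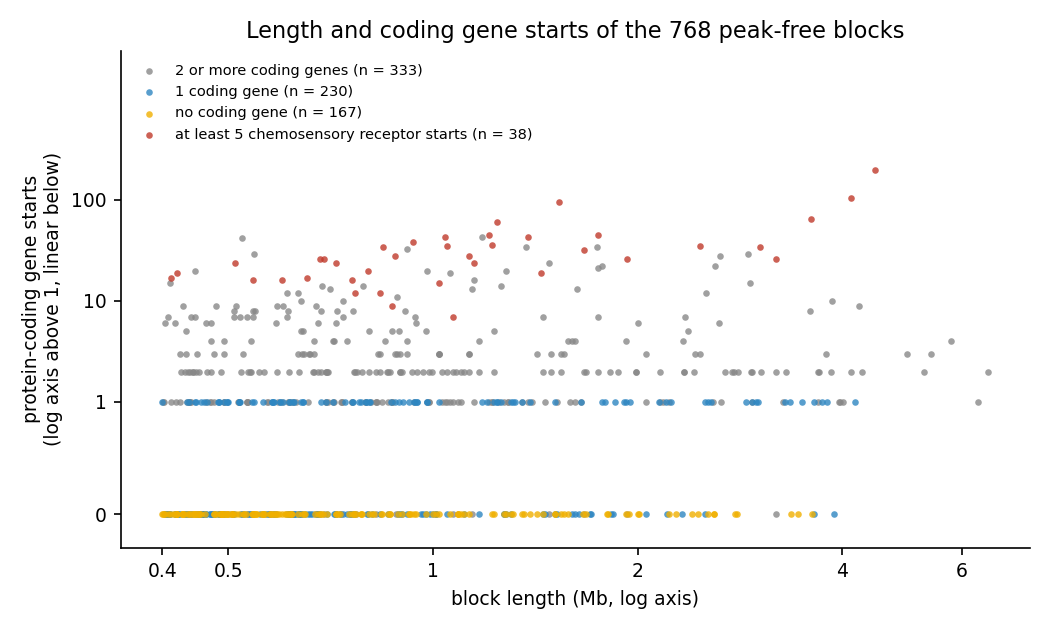
Each point is a peak-free block, with its length in Mb on a log axis and its number of protein-coding gene starts on an axis that is linear below 1 and logarithmic above. The 38 blocks with at least 5 chemosensory receptor starts (red) reach 200 starts, the 167 blocks that touch no coding gene (yellow) lie at 0, and the other blocks overlap 1 coding gene (blue) or several (grey).

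Distances from starts in blocks to peaks depend on the rule that formed the blocks. They are a description and carry no test, here and for the genes named below. The median distance from a coding start in a block to the nearest peak was 244 kb, with quartiles of 119 and 489 kb, and 41 starts (1.43%) had a peak within 3 kb. 2740 of the 2870 genes (95.5%) lay wholly in a block, and 2799 (97.5%) had every annotated transcript start in blocks. Among the starts close to a peak was that of Sox2, a factor of neural and pluripotent stem cells, at 0.364 kb.

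The 10 longest blocks ran from 6.56 down to 4.17 Mb and are given in that order with their coding genes. The longest (chr1:98193038-104754255, 6.56 Mb) held the start of Slco6d1, an organic anion transporter gene, and of Cntnap5b, a contactin-associated adhesion molecule. The second (6.33 Mb, chromosome 8) held Cdh8 with its start 2960.2 kb from the nearest peak, and 98.6% of the body of Cdh11, whose start lay outside. The third (5.77 Mb, chromosome 5) held G6pd2, Arap2, Dthd1 and Nwd2, and 21.3% of Pcdh7, a protocadherin that started outside. The fourth (5.40 Mb, chromosome 1) held Adgrb3, an adhesion receptor of synapses, with 4931408C20Rik and Gm597, and the last 5.16 kb of Lmbrd1. The fifth (5.28 Mb, chromosome 14) held only Slitrk1 and Slitrk6 among coding genes, and Slitrk1, a synaptic adhesion molecule with an intronless coding region, was 2522 kb from any peak.

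In the sixth (4.98 Mb, chromosome 19) lay Sorcs3 and Sorcs1, sorting receptors of neurons, with Ins1 at 658 kb from a peak and 89.8% of Cfap58. The seventh (chr2:86020760-90477245, 4.46 Mb) was the densest of all, with 200 coding starts of which 194 were odorant receptors, the first by position being Olfr1034, Olfr1036 and Olfr1037. The eighth (4.27 Mb, chromosome 1) held Cdh7 and Cdh19 and parts of Serpinb8 and Dsel. The ninth (chr6:77242748-81471215, 4.23 Mb) combined neuronal Ctnna2 and Lrrtm4 with 6 Reg genes, the secreted lectins of pancreas and gut (9 coding starts, the first by position being Ctnna2, Reg3b and Reg3d). The tenth (4.17 Mb, chromosome 12) held the synaptic adhesion gene Lrfn5 alone, with its start 2029 kb from a peak.

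Chemosensory receptors were the largest group. Of 1128 autosomal odorant receptor genes, the receptors of the olfactory epithelium, 905 (80.2%, Wilson 95% interval 77.8 to 82.5) started in 27 blocks, among them Olfr1, Olfr10, Olfr1000 and Olfr1002. Of 208 vomeronasal type 1 receptors, which sense pheromones, 185 (88.9%, 84.0 to 92.5) started in 11 blocks, among them Vmn1r10, Vmn1r100, Vmn1r101 and Vmn1r103. Vomeronasal type 2 receptors gave 93 of 119 (78.2%) and bitter taste receptors 26 of 35 (74.3%), such as Vmn2r1, Vmn2r10, Tas2r102 and Tas2r103. All 4 shares stand beside 13.8% for coding genes in general. Part of the vomeronasal receptors lay in blocks where under 50% of positions were placeable, a measure explained with the composition of blocks. Without those blocks 118 type 1 receptors (56.7%) and 70 type 2 receptors (58.8%) started in a block, beside 12.3% of coding genes, and no odorant or bitter taste receptor was lost. 24 of the 26 bitter taste receptors shared 1 block, and 2 of 35 (5.71%) lay in another. The intervals count genes and cover counting error only, and genes of a cluster share a block, so they are not independent.

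Not every member was covered. Of the 223 odorant receptor genes outside blocks, 152 started in peak-free intervals of 100 to 400 kb, 26 in the intervals left out for an assembly gap, 40 in intervals under 100 kb and 5 in a peak or beyond the outermost peaks. Among the trace amine and formyl peptide receptors 4 of 22 started in a block, and all 4 were Fpr-rs genes (Fpr-rs3, Fpr-rs4, Fpr-rs6 and Fpr-rs7) that lie with 21 vomeronasal type 2 receptors in a block of 3.03 Mb on chromosome 17.

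**Figure D2:**
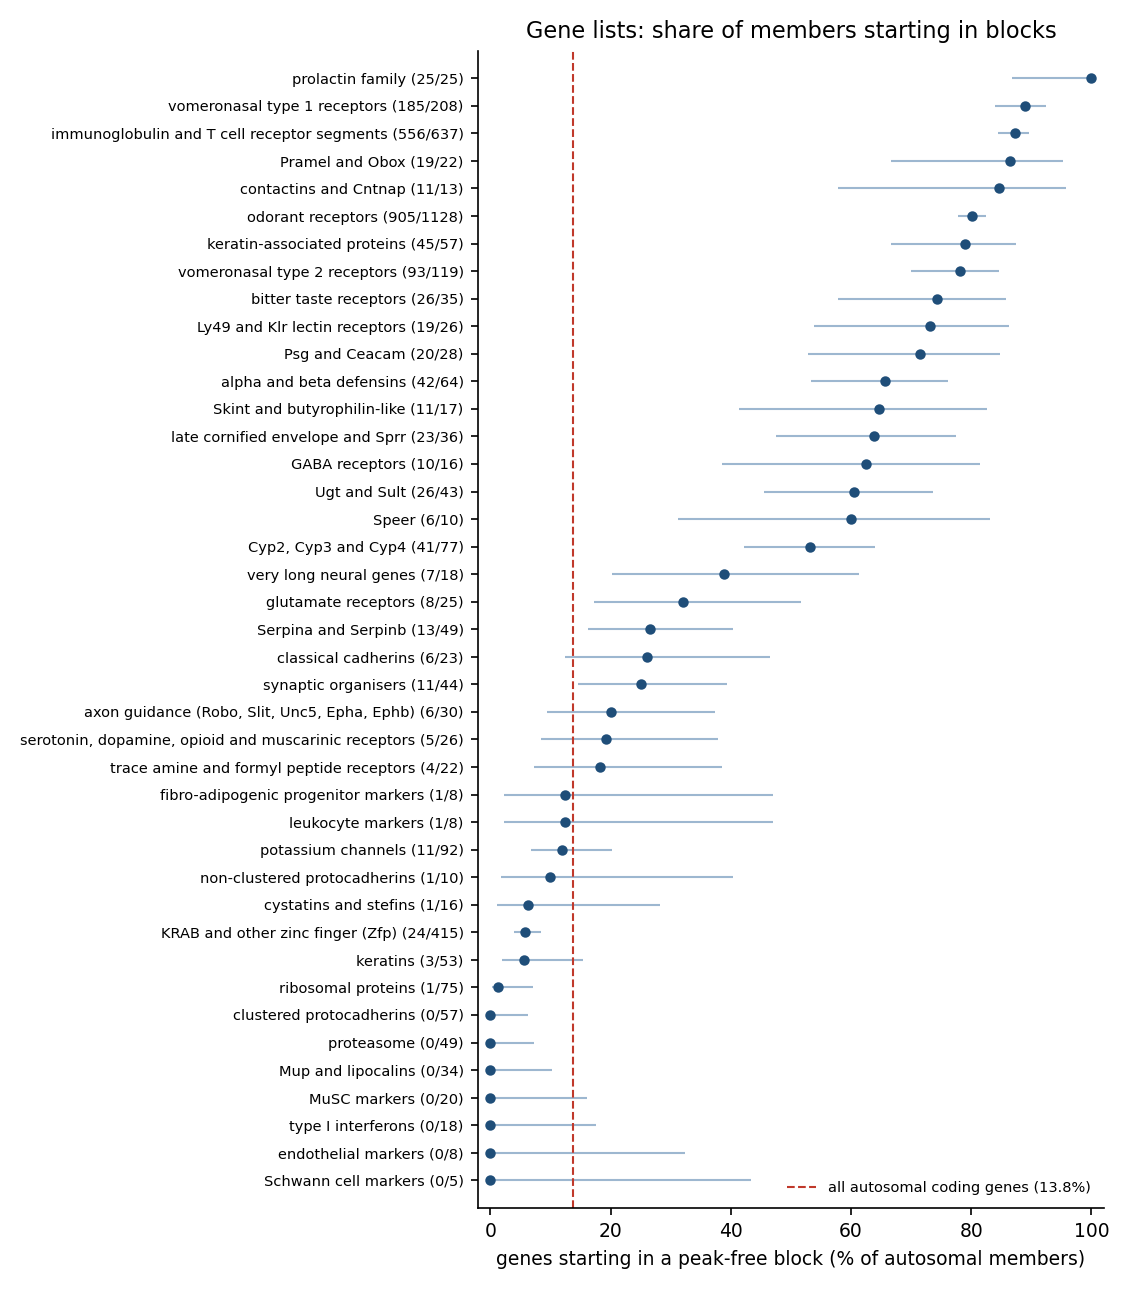
Points give the percentage of each list's autosomal members that start in a block, bars the Wilson 95% interval, and the dashed line the 13.8% of all autosomal coding genes. The prolactin family lies at 100%, most receptor, hair protein and antigen receptor lists lie above 60%, and the MuSC, endothelial, proteasome and clustered protocadherin lists lie at 0%.

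The 5 blocks with the most coding starts held 200, 105, 95, 65 and 61. The block with 105 (chr7:19956606-24080301, 4.12 Mb) held 65 vomeronasal type 1 receptors, Nlrp9b and a row of predicted genes. The block with 95 (chr7:102688812-104218806) held 82 odorant receptors around the 5 β-globin genes Hbb-bt, Hbb-bs, Hbb-bh2, Hbb-bh1 and Hbb-y, the globins of red blood cells. The start of Hbb-bt lay 405 kb and that of Hbb-y 366 kb from the nearest peak. The block with 65 (chr17:37274155-40877009) held 40 odorant receptors and all 15 autosomal Esp genes, the peptide pheromones of the exocrine glands. The block with 61 (chr10:128989340-130230218) held 60 odorant receptors and 1 predicted gene.

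Most segments of the antigen receptor loci lay in blocks. Of 637 immunoglobulin and T cell receptor segments of all biotypes, 556 (87.3%) started in 8 blocks, such as Ighd1-1, Ighd2-3 and Ighd2-4. This includes 218 of 218 immunoglobulin variable genes, 155 of 158 immunoglobulin variable pseudogenes and 130 of 144 T cell receptor variable genes, beside 22.4% of all 51229 autosomal genes of any biotype. The heavy chain locus fell in a pair of blocks with 93 and 117 segments, divided by 2 peaks of 1071 and 413 bp. The κ light chain locus fell in blocks with 46 and 119 segments, divided by a single peak of 224 bp. The largest count of segments, 120, was in a T cell receptor α block on chromosome 14 (chr14:52497544-53803861), in which reads could be placed at under 50% of the positions sampled (44.3%). Without it 436 of the 637 segments (68.4%) started in blocks. The J segments of that locus, such as Traj1, were outside. Lectin receptors of natural killer cells gave 19 of 26 (such as Klra1, Klra10, Klra17 and Klra2) in 1 block, and the Skint and butyrophilin-like list 11 of 17 in 1 block on chromosome 4. All 11 were Skint genes, of which Skint1 acts in the selection of epidermal T cells, and the 6 Btnl genes started outside.

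Lists of genes of reproduction, skin and detoxification mostly had shares above the 13.8% of all coding genes. All 25 numbered genes of the prolactin family, hormones mainly of the placenta (such as Prl2a1, Prl2b1, Prl2c1 and Prl2c2), started in 2 blocks. Prl, the prolactin of the pituitary, was not on that list and started in the block that held 22 of them (chr13:26934225-28410154). The Psg and Ceacam list gave 20 of 28 (such as Ceacam11, Ceacam12, Ceacam13 and Ceacam14), the Pramel and Obox list of germ cells and early embryos 19 of 22 (such as Obox1, Obox2, Obox3 and Obox5) and Speer genes 6 of 10 (such as Speer1, Speer2, Speer3 and Speer4a). Keratin-associated proteins of hair gave 45 of 57 (such as Krtap1-3, Krtap1-4, Krtap1-5 and Krtap11-1) and late cornified envelope and Sprr proteins of epidermis 23 of 36 (such as Lce1a1, Lce1a2, Lce1b and Lce1c). The keratins themselves gave 3 of 53 (1.94 to 15.4), an interval that includes the 13.8%. Defensins, antimicrobial peptides, gave 42 of 64 (such as Defa17, Defa2, Defa20 and Defa21), and 32 of these lay in a block of chromosome 8 with 49.3% placeable positions, without which 10 of 64 (15.6%) remained.

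Cytochrome P450 enzymes of the Cyp2, Cyp3 and Cyp4 families gave 41 of 77 (such as Cyp2a4, Cyp2b10, Cyp2b13 and Cyp2b19) and the conjugating Ugt and Sult enzymes 26 of 43 (such as Sult1b1, Sult1c1, Sult1c2 and Sult1d1). Without the fullest block of each list, 27 of 77 (35.1%) and 13 of 43 (30.2%) remained. Protease inhibitors of the Serpina and Serpinb families gave 13 of 49, and all 13 were Serpinb genes, such as Serpinb12, Serpinb13, Serpinb1b and Serpinb3a. Without the fullest block of this list 6 of 49 (12.2%) remained. Zinc finger genes gave 24 of 415 (5.78%), below the 13.8% of coding genes, with Zfp352, Zfp42, Zfp534 and Zfp558 among them. A further 20 started in the intervals left out for assembly gaps, and with these intervals counted the share was 10.6% beside 14.9% of coding genes. Cystatins and stefins gave 1 of 16 (1.11 to 28.3), an interval that includes the 13.8%. No start in a block was found for the type I interferons (0 of 18), with an interval up to 17.6% that includes the 13.8%. None was found for the urinary proteins and lipocalins (0 of 34), of which 22 started in the intervals left out for assembly gaps.

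Further clusters were seen from gene names after the blocks were known, and were picked for their high counts. Beside the 13.8% of all coding genes, the most frequent name stems with low shares were Slc with 16 of 358, Tmem with 7 of 235 and Fam with 16 of 196. Without the blocks under 50% placeable positions, 4 of the 235 Tmem genes (1.70%) started in blocks. Secretoglobins had 32 of 34 starts in blocks, tissue kallikreins 19 of 26, Fbxw genes 14 of 23, Nlrp genes 12 of 17 and interferon-inducible Ifi genes 11 of 18. The kallikreins, the Fbxw genes and the Ifi genes in blocks each shared 1 block. Without the fullest block of the Nlrp genes, 9 of 17 (52.9%) remained. All 5 caseins of milk, all 6 desmogleins of epithelial junctions, all 5 Mcpt mast cell proteases and all 6 Mrgprb receptors started in blocks. Each of these sets lay in a single block. The casein Csn2 lay 853 kb from any peak. Of the secretoglobins 29 lay in 1 block with 46.9% placeable positions, and without it 3 of 34 (8.82%) started in blocks.

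Lists of neural and adhesion genes differed widely in their share, beside the 13.8% of all coding genes. Contactins and contactin-associated proteins of axons gave 11 of 13 starts in 10 blocks (such as Cntn1, Cntn3, Cntn4 and Cntn5), and GABA receptor subunits 10 of 16 in 4 blocks (such as Gabra2, Gabra5 and Gabra6). Glutamate receptors gave 8 of 25 (such as Gria2, Gria4, Grik1 and Grik2), synaptic organisers 11 of 44 (such as Lingo2, Lrfn5, Lrrc4c and Lrrtm4), classical cadherins 6 of 23 (such as Cdh12, Cdh18, Cdh19 and Cdh7) and a list of very long neural genes 7 of 18 (such as Csmd2, Ctnna2, Dpp10 and Dpp6). Potassium channels gave 11 of 92 (such as Kcna4, Kcnd2, Kcnh7 and Kcnh8), which is 12.0%, axon guidance genes 6 of 30 (such as Dcc, Epha5, Epha6 and Robo1) and receptors for serotonin, dopamine, opioids and acetylcholine 5 of 26 (Htr1a, Htr1b, Htr1f, Oprk1 and Oprm1). The clustered protocadherins gave 0 of 57 and the other protocadherins 1 of 10. At this list size the share could not be told from that of all coding genes for the classical cadherins (12.5 to 46.5), the other protocadherins (1.79 to 40.4), potassium channels (6.81 to 20.2), axon guidance genes (9.51 to 37.3) and the receptors for serotonin and the other transmitters named with it (8.51 to 37.9). Together these neural and adhesion lists had 76 of 354 starts in blocks (21.5%, 17.5 to 26.0) in 66 blocks, whereas the 1213 chemosensory receptors shared 45.

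Of the 10 longest stretches of a coding gene inside a single block, 9 belonged to members of these lists and 1 to Gpc5, a glypican. Only a very long gene can hold such a stretch, and 1 of these lists is made of very long neural genes. The count of 9 therefore partly follows from how the lists were made and is a description. Cntnap2 ran for 1985 kb in a block, Lrp1b for 1686 kb, Csmd1 for 1502 kb, Gpc5 for 1433 kb and Cntn5 for 1244 kb. Nrxn3 followed with 1235 kb, Csmd3 with 1209 kb, Nkain2 with 1191 kb, Lsamp with 1174 kb and Lrrc4c with 1148 kb. Csmd1, Gpc5, Csmd3 and Nkain2 started outside any block. Of 218 autosomal coding genes of at least 500 kb, 111 had at least 50% of their body in blocks, and 45 of these started outside. The share of all autosomal coding genes with at least 50% of their body in blocks was not computed. On the stricter measure of a body wholly inside a block it was 13.2%, so the 111 have no like comparison. Across all lengths, 432 coding genes reached into a block from a start outside.

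189 genes were the only start of their block, and the longest such blocks among genes of no list included those of Nrg3, a neuregulin of the brain, Edil3, Brinp1, Slc10a2, Sis, Fstl5, Fam135b, Agbl1, Cylc2, Tmprss15, Celf2, Adarb2, Sntg1, Hs3st1, Hnf4g, Fat3, Mmp16, Olfm3 and Zbbx. Slc10a2 is the bile acid transporter of the ileum, Sis the sucrase of the intestinal brush border and Tmprss15 the enteropeptidase that activates trypsin. Nrg3 started 1296 kb, Brinp1 1143 kb and Slc10a2 325 kb from a peak. Celf2, Fat3, Hs3st1 and Mmp16 had another annotated transcript start outside blocks, and 11.7% of the body of Celf2 lay in blocks.

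Markers of the cells that could accompany MuSCs gave counts too small to be told from the 13.8% of all coding genes. None of 8 endothelial markers and none of 5 Schwann cell markers started in a block. Of 8 leukocyte markers 1 did, Adgre1 (F4/80 of macrophages), 23.6 kb from the nearest peak. Of 8 markers of fibro-adipogenic progenitors 1 did, Ly6a (Sca1, a surface protein by which cells were removed in the sort), 7.96 kb from a peak in a block of chromosome 15. With lists of this size, 0 of 8 allows a share of up to 32.4% and 0 of 5 up to 43.4%, and 1 of 8 has an interval of 2.24 to 47.1%. Ribosomal protein genes gave 1 of 75, the intronless Rpl10l of testis at 763 kb from a peak, and proteasome genes 0 of 49.

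Promoters in blocks were poor in CpG. A promoter was called CpG-rich when the 500 bp either side of the start had a GC content of at least 50% and an observed to expected CpG ratio of at least 0.6, which 45.7% of all autosomal coding genes met. In blocks 149 of 2870 did (5.19%, 4.44 to 6.06), and outside 9370 of 17937 (52.2%, 51.5 to 53.0). The median CpG ratio was 0.127 in blocks and 0.634 outside. Chemosensory receptors gave 0 of 1213, whereas the neural and adhesion lists in blocks gave 23 of 76 (30.3%) and genes that were the only start of their block 59 of 189 (31.2%). Genes that started outside but had at least 50% of their body in blocks gave 206 of 323 (63.8%, 58.4 to 68.8). Over the 250 bases before the start, a median of 1.0 CG was found in blocks and of 11 outside, and no CG at all in 29.1% and 3.91% of genes. The 281 receptors that started outside blocks had a median of 1.0 as well, with no CG in 39.1% (33.6 to 45.0) against 43.3% (40.5 to 46.1) for the 1209 receptors of the same 4 families in blocks.

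**Figure D3:**
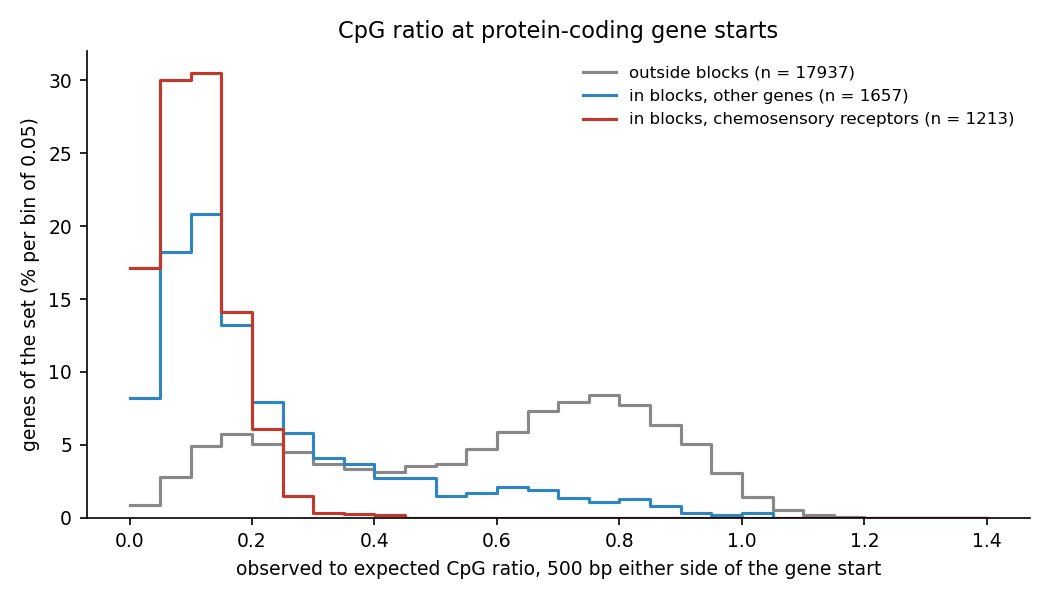
Lines give the percentage of genes per bin of 0.05 of the observed to expected CpG ratio within 500 bp of the start. Genes outside blocks have a broad upper mode near 0.8, receptors in blocks stay under 0.45, and the other genes in blocks have their peak near 0.1 with a tail that reaches above 0.6.

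The 149 CpG-rich promoters in blocks had a median distance of 212 kb to the nearest peak. 104 of them lay over 100 kb away and 9 lay within 3 kb. Some of the 149 lay in blocks with few placeable positions. Among the 104, Entpd4b, Gm21586 and Tmem254b lay in blocks with 1.13, 2.80 and 31.0% placeable positions. In such blocks a long distance to a peak cannot be told from a lack of placeable reads. The counts of CpG-rich promoters were not recomputed without them. Over all 2870 coding starts in blocks the median was 244 kb, the lower quartile was 119 kb and 41 lay within 3 kb. The CpG-rich promoters were thus not more remote than starts in blocks in general. Of the 41 starts within 3 kb 9 were CpG-rich, beside 149 of all 2870 (5.19%). 93 of the 104 also had every annotated transcript start in blocks. Those with the highest ratio were Shisa6 (280.5 kb from a peak), Nptx2 (185 kb) and Ctnnd2 (756 kb), followed by Otud7a, Reln, which encodes the secreted reelin of the developing brain, and Ajap1. Next by ratio was Sox2, 0.364 kb from a peak. Irx1, a homeobox gene, lay at 293 kb, and Nrg3, Arap2 and Ptprd lay over 1 Mb from the nearest peak. Ctnnd2, Otud7a and Ptprd had another annotated transcript start outside blocks.

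Blocks were poor in GC and rich in repeats. Their median GC content was 39.0%, with quartiles of 37.9 and 40.7%, against 41.6% (39.8 to 43.9) in 2574 peak-free intervals of 100 to 400 kb. Pooled, blocks had 38.9% GC and the rest of the autosomes 43.6%. Repeat-masked bases made up 40.3% of blocks and 29.8% of the rest, with a median of 50.2% over the 38 receptor blocks. 51 blocks reached the GC content of the rest.

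Reads that align to more than 1 place were not used by the authors, so reads from identical copies could not enter the peak calls. To measure this, the 64-base word at every kilobase, the length of the study's single-end reads, was searched on both strands of the assembly, and a position was taken as placeable when its word was found once. Words were matched exactly, so copies that differ by a few bases counted as placeable. The measure can therefore overstate what an alignment that allows mismatches would place. 87.5% of words in blocks and 93.6% of words elsewhere were found once. 424 blocks with 434 Mb had at least 90% of their words found once, and 17 blocks with 28.0 Mb had under 50%. In those 17 blocks the absence of peaks and the lack of placeable reads cannot be told apart. Near-identical copies may leave the same doubt in other blocks, which was not measured. The lowest was a block of chromosome 14 at 1.13% (chr14:69249702-69690854), which held Slc25a37, a mitochondrial iron importer of erythroid cells, and Loxl2. The Ccl21b and Fam205a block of chromosome 4 had 2.80%, the vomeronasal type 1 block with 105 starts 22.3% and a vomeronasal type 2 block of chromosome 7 23.3%. The odorant receptor block with 200 starts had 83.1%, the β-globin block 84.3%, the longest block 88.8% and the block with Prl 88.7%.

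**Figure D4:**
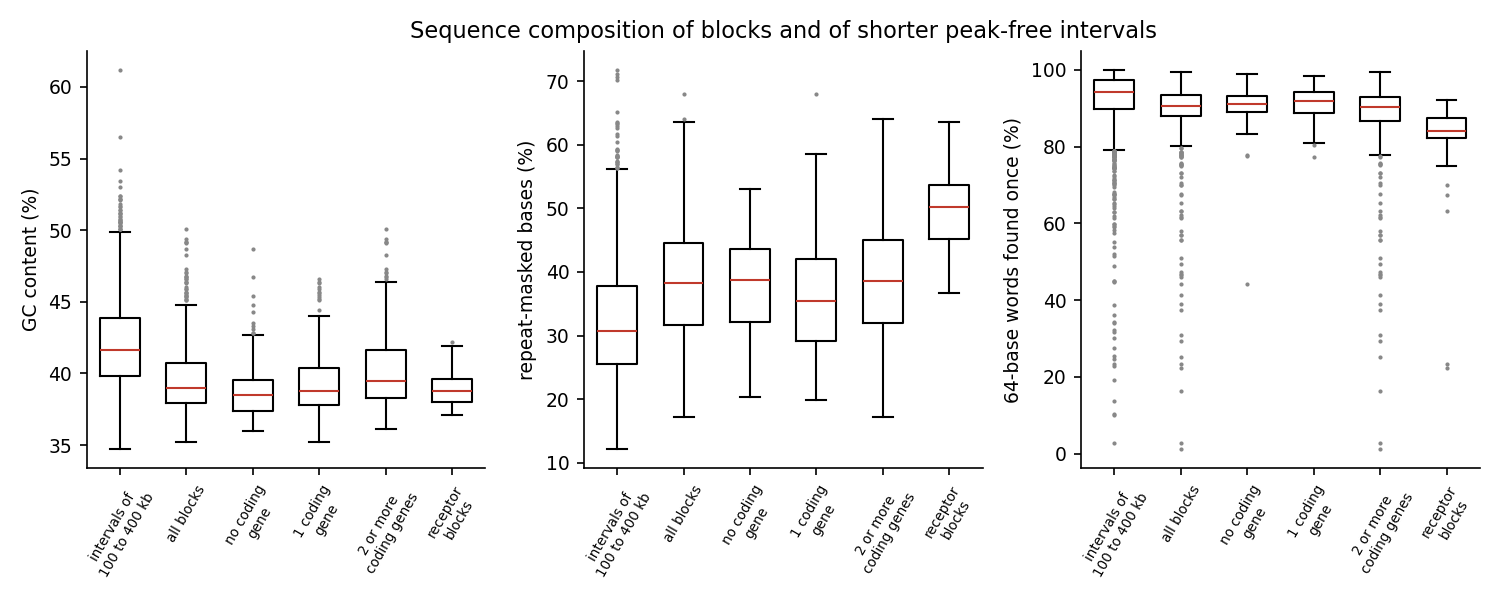
Boxes give the quartiles and median (red), whiskers reach to 1.5 times the box height and points lie beyond, for GC content, repeat-masked bases and the share of 64-base words found once in the assembly. Blocks have a lower GC content (median 39.0%) than intervals of 100 to 400 kb (41.6%), receptor blocks have the most repeats (50.2%), and a small number of blocks fall below 50% of words found once.

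Classes of genes without a protein product ranged from rarer in blocks than coding genes to more frequent there than elsewhere. Processed pseudogenes, copies of spliced RNA, had 3.68 starts per Mb of block against 3.75 elsewhere. Unprocessed pseudogenes, remnants of gene duplication, had 62.5% of their autosomal members in blocks. Long intergenic RNAs had 1.25 against 2.68 per Mb, and antisense genes had 7.52% of their members in blocks, below the 13.8% of coding genes. Of 1442 snoRNA genes 547 (37.9%) started in blocks, beside 22.4% of autosomal genes of all biotypes, and 210 of these lay in a single block of chromosome 7 (chr7:59272917-60004696) in which 47.4% of words were found once. Without that block 337 snoRNA genes (23.4%) started in blocks, near the share of all biotypes. That block was parted from its neighbour by a single peak of 607 bp at the start of Snurf, the gene at the head of the imprinted Snrpn locus. The neighbour (chr7:60005304-62348234) held the start of Ndn, an imprinted neuronal gene, and the Mir344 cluster. These blocks are named after their values were seen.

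Of 2054 miRNA genes 438 (21.3%) started in blocks, close to the 22.4% of all biotypes, and 119 lay in a block of 408.5 kb on chromosome 2 (chr2:10376117-10784573) with the repeated Mir466, Mir467 and Mir669 genes, without which 15.5% started in blocks. The RefSeq table of miRNA sequences held 919 autosomal hairpins. A smaller share than the 21.3% above lay in blocks, 73 hairpins (7.94%). 13 of these were Mir344 hairpins, and 7 of their 25 mature entries shared the seed GUCAGGC. The mature sequences below show this family, and miR-9 and miR-153 of neurons from 2 further blocks, with the seed (bases 2 to 8) in capitals.
miR-344-5p (chr7:61877819-61877844, minus strand): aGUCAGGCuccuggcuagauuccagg
miR-344c-5p (chr7:61837363-61837385, minus strand): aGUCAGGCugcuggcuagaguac
miR-344d-1-5p (chr7:61683166-61683189, minus strand): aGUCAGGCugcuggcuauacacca
miR-344-3p (chr7:61877782-61877804, minus strand): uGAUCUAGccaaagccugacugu
miR-344d-3p (chr7:61683127-61683148, minus strand): gAUAUAACcacugccagacuga
miR-9-5p of Mir9-2 (chr13:83738821-83738843, plus strand): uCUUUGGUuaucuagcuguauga
miR-153-3p (chr12:117250860-117250881, plus strand): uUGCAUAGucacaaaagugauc
The 5′ arms shown share their seed, and the 3′ arms carry different ones, of which GAUCUAG occurred in 3 and AUAUAAC in 4 mature entries of the block.

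The peaks at the edges of blocks were about as wide as others, with a median of 976 bp over the 1433 edge peaks and 981 bp over other autosomal peaks. 31.8% of edge peaks (29.5 to 34.3) lay within 3 kb of a coding start against 17.5% (17.3 to 17.8) of other peaks, and 3.21% against 6.16% were at least 5 kb wide. The rule that formed the blocks also chose these peaks.

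Of 749 pairs of neighbouring blocks on a chromosome, 103 (13.8%) were parted by a single peak. These peaks had a median width of 861 bp, and 42 (40.8%, 31.8 to 50.4) lay within 3 kb of a coding start. With up to 3 peaks in at most 50 kb there were 138 such islands, of which 60 had a coding start within 3 kb and 73 lay over 100 kb from one. The 10 shortest were single peaks of 94 to 223 bp, and their nearest coding starts were those of Cntn6, Brinp3, Mdga2 (near 2 of them), Htr1a, Lrp1b, Efna5, 1700008P02Rik, Fsip2 and Cdh9, at 118 to 1686 kb. 1 lay in an intron of Lrp1b and 1 in an intron of Mdga2, and the other 8 lay in no annotated gene.

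Repeat sequence made up much of the narrow peaks between blocks. 7 of the 10 were repeat-masked over at least 50% of their bases, as were 11 of the 24 single peaks under 500 bp (45.8%, 27.9 to 64.9) and 2 of the 79 wider ones (2.53%). Of all 13282 autosomal peaks under 500 bp 14.4% were (13.8 to 15.0). The peak in Lrp1b (chr2:40967629-40967823, 195 bp) was masked over 31.3%. It is shown on the plus strand with CG in capitals.
Peak in Lrp1b: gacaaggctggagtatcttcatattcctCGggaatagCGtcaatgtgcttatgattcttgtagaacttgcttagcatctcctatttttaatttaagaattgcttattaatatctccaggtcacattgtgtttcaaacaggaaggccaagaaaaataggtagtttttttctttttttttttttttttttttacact
Whether such a peak stands in both genotypes cannot be read from the merged list. With blocks parted by a single peak joined, the number of blocks was 665 instead of 768 and the share without a coding start 36.5% instead of 42.6%.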

How the data were processed

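H3K56ac and input ChIP-seq libraries of sorted MuSCs were sequenced on the IonTorrent Proton platform. Per the study's methods, reads were trimmed, aligned with Bowtie to mm10 keeping single alignments, cleared of duplicates, and used for MACS2 peak calling, blacklist removal and merging of overlapping peaks. The authors deposited 1 merged list of 105600 peak positions, 103492 of them autosomal, with no value per library. Which libraries entered it is not given in the sources used here.

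Genes were taken from GENCODE M21 and sequence from RefSeq GRCm38.p6, with Wilson 95% intervals of counting error only. Scripts (Python 3.11.15, numpy 2.4.6, pandas 2.3.3, scipy 1.17.1, numba 0.67.0) were tested on simulated peaks with known blocks. No test was run, since the merged list holds no value per replicate and the reads were not analysed here. The RefSeq promoter table held 2165 of 2866 coding symbols in blocks, so CG counts were made from the genome. The length of the words searched in the assembly, 64 bases, was set to the stated read length after results with a longer word had been seen.

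The members and the gene lists, which are symbol patterns, were chosen with earlier results of these data known, and some patterns were narrowed after their matches were seen. Named genes are those of the 10 longest blocks (the first 3 by position where over 6), the 10 longest stretches, up to 4 members in alphabetical order of lists with at least 5 starts, the 5 densest blocks, the 10 shortest islands, 3 blocks either side of the threshold and up to 20 single-start genes. Others were chosen after their values were seen. Some items that this rule names are not reported here.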

Additional observations from a re-analysis of the deposited data

How the results depend on the processing

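6 results were recomputed under 10 alternatives, 2 of them chosen after seeing the data (leaving out blocks under 50% unique words, and asking that every annotated transcript start lie in a block). Of 46 values, 34 stayed within their limit (1.5 times for the number and total length of blocks, the Wilson interval for shares, the SD over blocks for GC). The number of blocks ran from 608 to 1043, their total length from 773 to 939.9 Mb and their median GC content from 38.8 to 39.4%. The share of coding genes starting in blocks, 13.8%, was 15.5% at 300 kb, 12.8% at 500 kb, 12.8% without blocks that touch any gap of at least 100 bp, 14.9% with no gap filter, 12.3% without the 17 blocks under 50% unique words and 13.2% for genes wholly inside. The share of odorant receptors, 80.2%, was 84.0% at 300 kb, 77.0% at 500 kb and 82.5% with no gap filter. The share of blocks without a coding start, 42.6%, was 37.8% at 500 kb, 36.5% with blocks parted by a single peak joined and 21.7% when no coding gene body may overlap. The cause of these shifts is the construction of each alternative.

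No paired analysis was possible because the peak list used here holds positions alone, and Sirt6mKO could not be compared with Control. Peaks below the caller's threshold or in blacklisted sequence are not in the list, so a block is not shown to lack the mark. The depth of the libraries was not analysed here. The shares of gene lists without blocks of few placeable positions, without their fullest block or with the gap intervals were also computed after seeing the data, and those that moved by over 1.5 times through placeable positions or gaps stand beside the list. Shares without the fullest block stand beside some of the lists.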
